A study of Mus musculus with 6 samples.

Results

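The 39 Hox genes of the mouse genome were taken from the deposited count table by symbol (Hoxa, Hoxb, Hoxc or Hoxd followed by a paralogue number), which gave 39 protein-coding genes of 52636 gene IDs in all. They lie in 4 clusters of the GRCm38 build, with 11 genes in cluster A (chromosome 6), 10 in cluster B (chromosome 11, 96194316 to 96368256), 9 in cluster C (chromosome 15, 102921103 to 103036852) and 9 in cluster D (chromosome 2, 74668310 to 74765142). Hox genes encode homeodomain transcription factors that give cells their position along the head-to-tail axis. Genes of low paralogue number lie at the 3′ end of a cluster, are switched on first and act in the hindbrain and neck, while genes of high number follow later and act further caudally. In undifferentiated embryonic stem cells (ESCs) the clusters are kept largely silent by Polycomb complexes, and retinoic acid, WNT and FGF signals open them during differentiation.

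RNA was sequenced from embryoid bodies (EBs), spheres of ESCs that differentiate in culture, in 3 WT and 3 Tnfaip2-/- samples. The WT samples came from the parental E14 line. The Tnfaip2-/- samples came from 1 CRISPR-Cas9 clone of it with a premature stop in the second exon, so that the genotype and other properties of the clone cannot be told apart. Both lines spent 3 days in hanging drops, which the labels give as 300 cells in 30 µl while the methods of the study state another cell number and volume, and then 3 days on gelatin in fibroblast medium, given with serum replacement in the labels and with serum in the methods. The ESC medium, in which the drops were also set up, held 1000 U/ml of the cytokine LIF. Total counts were 22987433, 22489903 and 23804489 in WT and 22480962, 21765931 and 21986960 in Tnfaip2-/- EBs.

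The targeted gene itself was scarce. Tnfaip2 had 7, 4 and 7 counts in WT and 0, 2 and 2 in Tnfaip2-/- EBs, too few for the expression filter. All 3 Tnfaip2-/- samples were below all 3 WT samples, as the labels have it, although a premature stop need not lower the RNA. The pluripotency factors Pou5f1, Nanog and Sox2 were abundant in both genotypes, at 760 ± 9.63, 258 ± 8.96 and 281 ± 2.82 CPM (counts scaled to TMM-adjusted library totals) in WT (mean ± SD, n = 3) and 419 ± 5.97, 310 ± 7.38 and 329 ± 6.78 CPM in Tnfaip2-/- EBs.

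Of the 39 Hox genes, 8 passed the expression filter and were tested, 28 had at least 1 count but did not pass, and 3 (Hoxc12, Hoxd4 and Hoxd12) had 0 counts in every sample, which allows up to 0.126 to 0.138 CPM (3 counts of the total before TMM adjustment) in a library. Exons of other annotated genes cover 52.3% of the exon bases of Hoxd4. If reads from those stretches were left out of the counts, this limit does not hold for Hoxd4. By edgeR's quasi-likelihood test with Benjamini-Hochberg adjustment over 17849 genes, 6 of the 8 were called lower in Tnfaip2-/- EBs (Hoxa2, Hoxa3, Hoxa4, Hoxa5, Hoxb1 and Hoxb2), Hoxb9 was not called and 0 were called higher. Of all tested genes, 33.7% were called lower and 34.0% higher. Each of the 6 fell by 2-fold or more, a change that 4.51% of tested genes made in that direction. In all 6 the 3 Tnfaip2-/- samples lay below the 3 WT samples, as in 34.5% of tested genes. Of the 8 tested, 0 were higher at an unadjusted p under 0.05, and DESeq2 also called 0 Hox genes higher. Of the 8, 4 (Hoxa2, Hoxa4, Hoxb1 and Hoxb2) reached the filter's minimum in every WT sample but not in every Tnfaip2-/- sample. Hoxb1 and Hoxb2 reached it in 0 Tnfaip2-/- samples and so passed through WT alone, while Hoxa2 and Hoxa4 also reached it in 2. The count of 6 in 8 is therefore not a share of the Hox genes. In these bulk samples fewer cells that express a gene and less of its RNA per cell cannot be told apart.

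**Figure D1:**
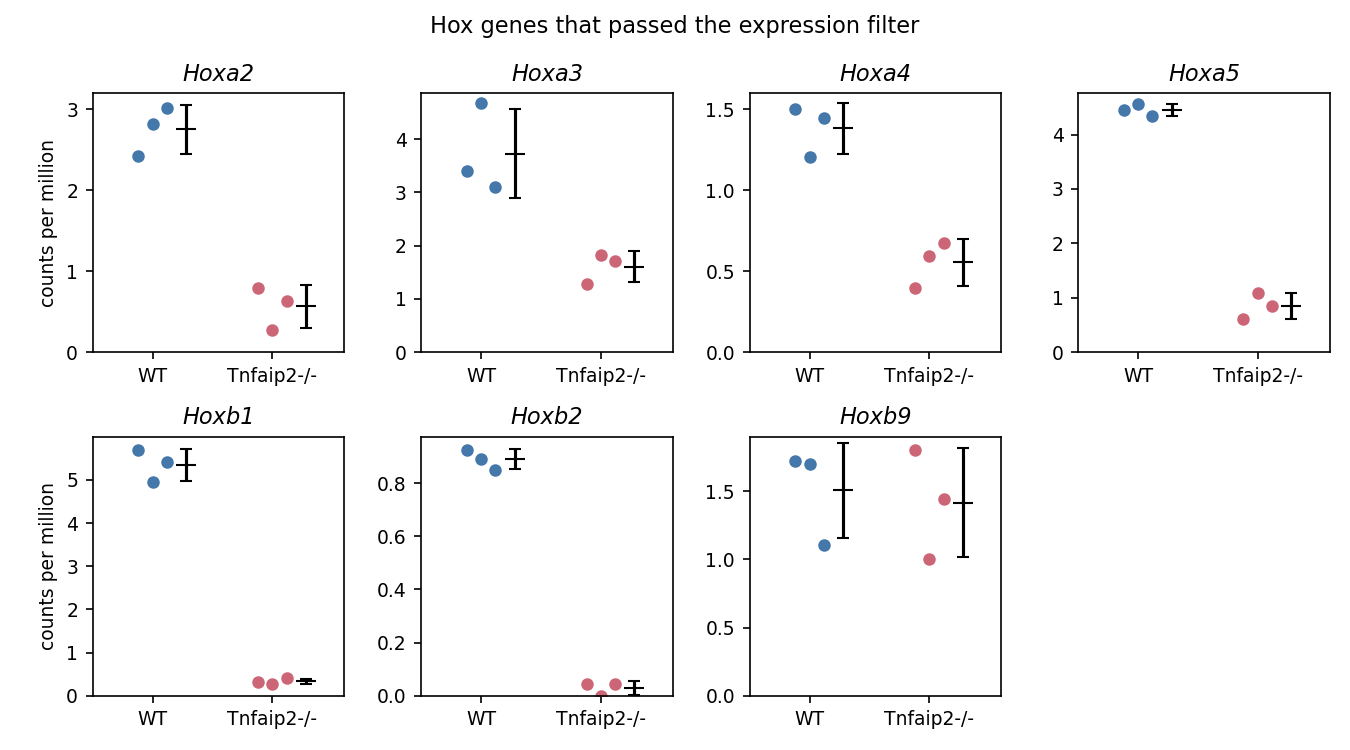
CPM in each sample for Hox genes that passed the expression filter, with 3 WT and 3 Tnfaip2-/- samples as points and the mean ± SD as bars. The groups overlap for Hoxb9 and are apart for the 6 genes called lower.

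Paralogue group 1 acts first, in the early hindbrain. Hoxb1, which sets the identity of the fourth hindbrain segment, had 129, 111 and 127 counts in WT and 7, 6 and 9 in Tnfaip2-/- EBs. Every Tnfaip2-/- sample was far below every WT sample, and Hoxb1 was 16.0-fold lower (log2 fold change -4.00 ± 0.21, SE; adjusted p = 1.51e-21). Hoxd1, of the same group, had 6, 9 and 4 counts in WT and 6, 10 and 10 in Tnfaip2-/- EBs and was not tested.

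Paralogue groups 2 and 3 act in the hindbrain and the pharyngeal arches. Hoxa2, which specifies the second arch, had 55, 63 and 71 counts in WT and 18, 6 and 14 in Tnfaip2-/- EBs. No sample of one genotype reached the other, and the log2 fold change was -2.27 ± 0.23 (adjusted p = 9.42e-12). Hoxb2, which acts in the hindbrain beside Hoxb1, had 21, 20 and 20 counts in WT and 1, 0 and 1 in Tnfaip2-/- EBs. With 61 counts against 2, WT was higher by a ratio of 29.2 (exact 95% counting interval 7.73 to 246, adjusted p = 2.45e-10 by edgeR). Hoxa3, needed for derivatives of the third arch such as the thymus, had 77, 105 and 73 counts in WT and 29, 40 and 38 in Tnfaip2-/- EBs. Its groups were also apart (log2 fold change -1.21 ± 0.17, adjusted p = 4.71e-08). Hoxb3 had 11, 8 and 9 counts in WT and 4, 1 and 3 in Tnfaip2-/- EBs, below the filter. Exons of other annotated genes cover 27.1% of the exon bases of Hoxa3, 27.3% of Hoxb2, 52.9% of Hoxb3, 15.0% of Hoxa2 and 16.0% of Hoxa4. Since the library kit does not mark strand, reads from those stretches cannot be assigned to 1 gene. How such reads were counted was not given in the sources used here. If they were left out, the counts of these genes are too low.

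Paralogue groups 4 to 8 pattern the neck and trunk. Hoxa5, which acts in the lung and the cervical skeleton, had 101, 102 and 102 counts in WT and 14, 24 and 19 in Tnfaip2-/- EBs. WT samples were nearly equal and all above the Tnfaip2-/- samples (log2 fold change -2.37 ± 0.18, adjusted p = 6.27e-16), and no exon of another gene covers Hoxa5 (nor Hoxb1). Hoxa4, a gene of the cervical vertebrae, had 34, 27 and 34 counts in WT and 9, 13 and 15 in Tnfaip2-/- EBs. The groups did not overlap and the log2 fold change was -1.31 ± 0.26 (adjusted p = 2.63e-05). The remaining named genes of these groups did not pass the filter. Hoxb8, known from myeloid progenitors and the caudal embryo, had 11, 5 and 12 counts in WT and 0, 1 and 1 in Tnfaip2-/- EBs, a ratio of 13.4 (exact 95% counting interval 3.37 to 116). Hoxa7 had 7, 2 and 6 counts in WT and 5, 3 and 3 in Tnfaip2-/- EBs. Hoxb4, a gene of blood stem cells, had 6, 4 and 9 against 6, 3 and 6. Of these 3, Hoxb8 had groups that were apart. Hoxb5 and Hoxb6, described after their values were seen, had fewer counts. Hoxb5 went the other way, with 1, 0 and 2 counts in WT and 5, 3 and 3 in Tnfaip2-/- EBs. All 3 Tnfaip2-/- samples were above the WT samples, with a WT to Tnfaip2-/- ratio of 0.261 (exact 95% counting interval 0.0467 to 0.987). Hoxb6 had 3, 3 and 2 counts in WT and 1, 0 and 0 in Tnfaip2-/- EBs, all below WT, a ratio of 7.65 (interval 1.03 to 339). Hoxc4 had 7, 2 and 8 counts in WT and 5, 8 and 7 in Tnfaip2-/- EBs, and Hoxd8 had 5, 8 and 0 against 8, 8 and 3, both with overlapping groups.

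Paralogue groups 9 to 13 pattern the posterior trunk, limbs and genital region. Hoxb9, which acts in the thoracic skeleton, had 39, 38 and 26 counts in WT and 41, 22 and 32 in Tnfaip2-/- EBs. The groups overlapped (log2 fold change -0.08 ± 0.22, adjusted p = 0.763). Hoxa9, known from blood progenitors, had 8, 7 and 9 counts in WT and 0, 3 and 1 in Tnfaip2-/- EBs, and its groups were apart. Hoxa10 had 4, 7 and 8 counts against 2, 5 and 4, and Hoxa11 had 2, 5 and 5 against 0, 2 and 6. Both overlapped between genotypes. Hoxb13 had 6, 4 and 5 counts in WT and 1, 4 and 1 in Tnfaip2-/- EBs, and Hoxd9 had 3, 6 and 6 against 4, 2 and 1. These counts overlapped or met as well. Hoxc13, a gene of hair and nail, had 1, 5 and 5 counts in WT and 5, 8 and 9 in Tnfaip2-/- EBs, and Hoxd13, a gene of the digits, had 7, 6 and 1 against 12, 7 and 7. For both the highest counts were in Tnfaip2-/- EBs, while counts of the genotypes met at 5 for Hoxc13 and at 7 for Hoxd13. In CPM the groups overlapped for Hoxc13, and for Hoxd13 all 3 Tnfaip2-/- samples were above the WT samples. The 14 genes with 1 to 19 counts, Hoxb5 and Hoxb6 among them, had at most 16 counts over the 6 samples and at most 5 in any 1 of them. In CPM groups were apart also for Hoxc10 (3 counts in WT and 0 in Tnfaip2-/- EBs) and Hoxa13 (2 against 4).

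When every gene with at least 1 count was fitted, 36 Hox genes had a value and 9 were called lower, the 6 above with Hoxa9, Hoxb3 and Hoxb8, where 21.4% of the 30163 genes fitted were called lower. In that fit 0 Hox genes were called higher, where 12676 of all genes fitted were called different and 6442 of these were lower. Of the Hox genes 1, Hoxb5, was higher at an unadjusted p of 0.0397 by edgeR (adjusted p = 0.0881). The difference is plotted by paralogue number for Hox genes with 20 or more counts.

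**Figure D2:**
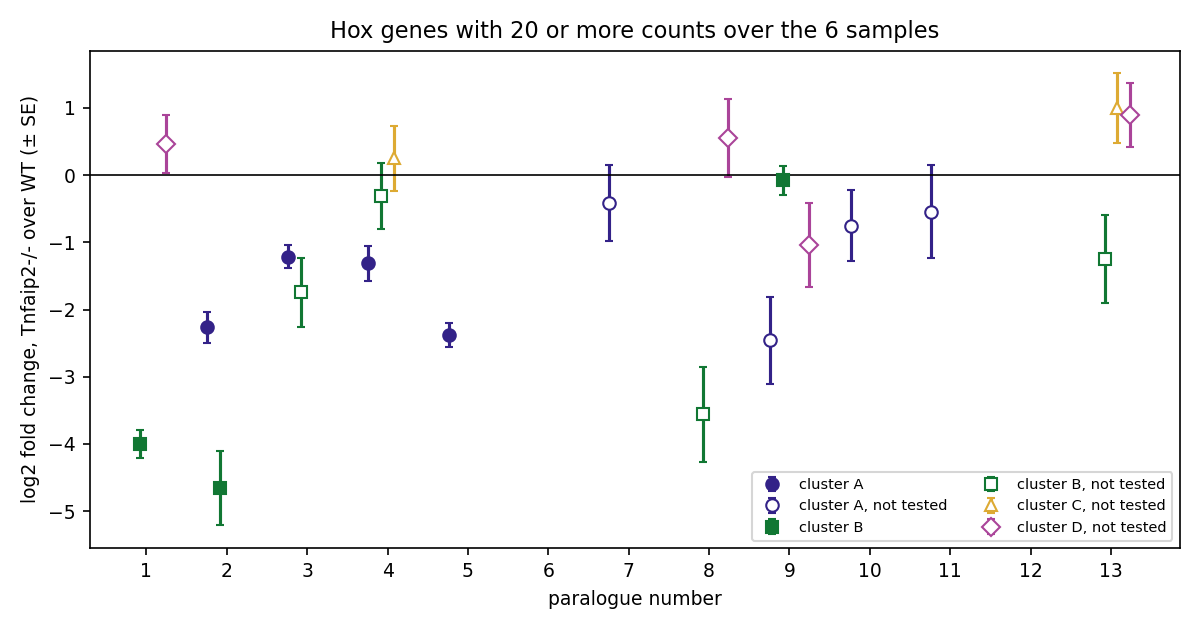
Log2 fold change of Tnfaip2-/- over WT EBs (± SE) against paralogue number for Hox genes with 20 or more counts over the 6 samples. Filled symbols passed the filter, open symbols come from the fit without a filter, and symbol shape gives the cluster; Hoxb1 and Hoxb2 lie lowest, at -4.00 and -4.66.

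The Hox genes also differed in level. Per kilobase of exon, WT EBs held 2.37 ± 0.0570 CPM per kb of Hoxa5 and 2.30 ± 0.159 of Hoxb1, which did not differ beyond their spread, where the median over all tested genes was 4.61 CPM per kb, and Hoxa2 was at 1.55 ± 0.170. The lower 4 were Hoxa4 at 0.868 ± 0.0984, Hoxa3 at 0.620 ± 0.140, Hoxb9 at 0.586 ± 0.135 and Hoxb2 at 0.255 ± 0.0108 CPM per kb, with Hoxa3 and Hoxb9 within each other's spread. In Tnfaip2-/- EBs Hoxb9 was at 0.551 CPM per kb and Hoxa5 at 0.456. Hoxb1 was then at 0.142 CPM per kb, below Hoxa2 at 0.319, Hoxa3 at 0.267 and Hoxa4 at 0.348.

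Summed over the genes of a cluster, with no filter, cluster B went from 9.38 ± 0.796 to 2.49 ± 0.497 CPM, with groups apart. Clusters C and D held few counts, 43 and 68 counts over the WT samples and 50 and 79 over the Tnfaip2-/- samples. By position, paralogues 4-8 summed to 7.61 ± 0.575 CPM in WT and 2.77 ± 0.410 in Tnfaip2-/- EBs, and paralogues 9-13, whose groups overlapped, to 3.32 ± 0.429 against 2.78 ± 0.246. These sums rest on their most counted genes in the WT samples, Hoxb1 in cluster B, Hoxa5 in paralogues 4-8 and Hoxb9 in paralogues 9-13.

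**Figure D3:**
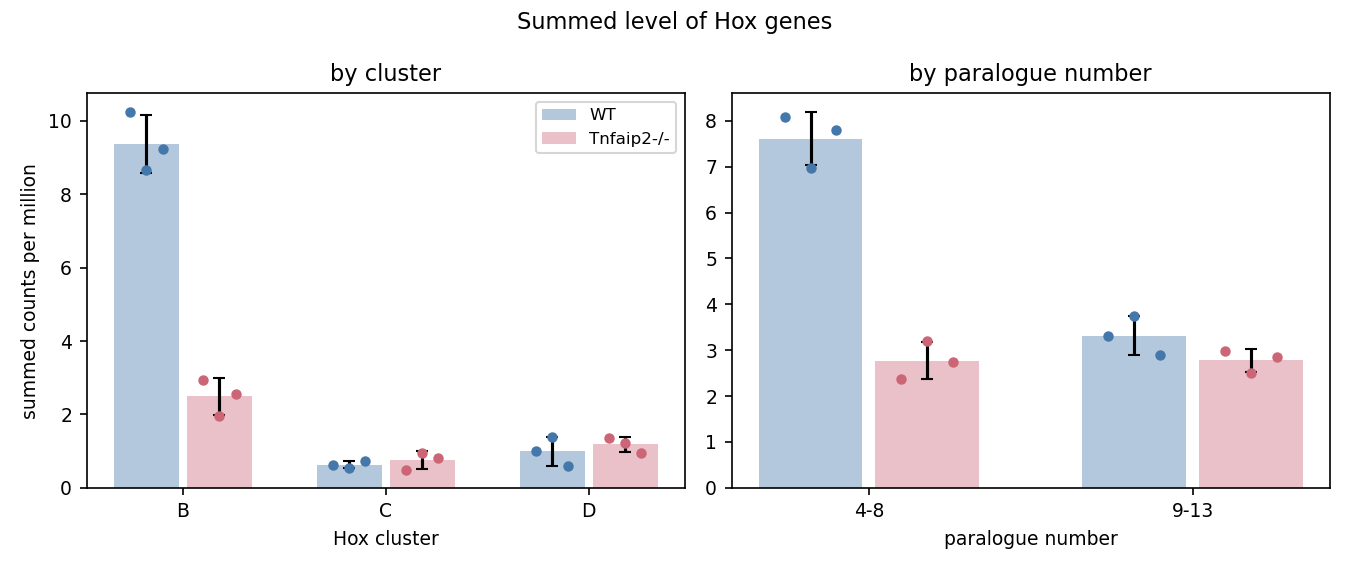
Summed CPM of Hox genes by cluster (left) and by paralogue number (right), with bars at the group mean, error bars of 1 SD and a point for each of 3 WT and 3 Tnfaip2-/- samples. Of the sums shown, those of cluster B and of paralogues 4-8 are lower in all Tnfaip2-/- samples.

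Promoter sequence is shown for 3 genes that moved together, Hoxb1, Hoxa5 and Hoxa2, from RefSeq (GRCm38.p6), which held 24 windows for 22 of the 39 genes, each 250 bases before to 50 after a start. Capitals mark matches, on either strand, to TGATNNAT, the shared site of PBX and HOX proteins. The Hoxb1 window is chr11:96365508-96365807 on the plus strand, that of Hoxa5 is chr6:52204538-52204837 and that of Hoxa2 is chr6:52164782-52165081, both on the minus strand.
Hoxb1: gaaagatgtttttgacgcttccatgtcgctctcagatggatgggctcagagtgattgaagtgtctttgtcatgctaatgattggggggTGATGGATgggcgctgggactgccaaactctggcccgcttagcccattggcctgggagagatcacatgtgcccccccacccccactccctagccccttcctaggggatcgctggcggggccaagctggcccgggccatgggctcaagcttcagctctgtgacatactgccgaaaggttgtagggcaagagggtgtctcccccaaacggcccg
Hoxa5: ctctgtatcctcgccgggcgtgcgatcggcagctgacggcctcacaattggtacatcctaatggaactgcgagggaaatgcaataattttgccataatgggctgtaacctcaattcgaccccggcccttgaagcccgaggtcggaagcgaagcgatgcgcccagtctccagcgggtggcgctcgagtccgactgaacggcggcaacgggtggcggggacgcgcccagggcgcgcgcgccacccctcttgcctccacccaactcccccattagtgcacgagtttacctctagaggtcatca
Hoxa2: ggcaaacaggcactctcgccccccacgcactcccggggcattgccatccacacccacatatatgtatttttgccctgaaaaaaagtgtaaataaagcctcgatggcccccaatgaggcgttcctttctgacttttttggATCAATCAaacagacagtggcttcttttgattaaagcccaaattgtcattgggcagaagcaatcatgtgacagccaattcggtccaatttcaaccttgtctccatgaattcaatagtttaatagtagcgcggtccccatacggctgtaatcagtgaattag
TGATNNAT was present once each in the Hoxb1 and Hoxa2 windows and not in that of Hoxa5, and 4 of the 22 genes held it (Hoxa2, Hoxb1, Hoxb8 and Hoxd11), where 8.85% of 32851 promoters of this length did. The CDX letters CCATAAA were found in 2.75% of promoters and, among the Hox genes, in Hoxd4, and the T-box letters TCACACCT in 1.28% and in Hoxd9. None of the 3 printed windows held either. A match describes the letters only.

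RNAs that are not Hox genes lie between them. Hoxb3os, antisense to Hoxb2 and Hoxb3, had 10, 11 and 9 counts in WT and 0, 1 and 0 in Tnfaip2-/- EBs, a ratio of 28.7 (exact 95% counting interval 4.77 to 1170). Exons of Hoxb2 and Hoxb3 cover 76.2% of Hoxb3os. How reads in these shared exons were counted was not given in the sources used here, and the counts of the 3 genes may not be independent. Hoxaas2, beside Hoxa3, had 19, 17 and 18 counts in WT and 7, 3 and 7 in Tnfaip2-/- EBs (log2 fold change -1.61 ± 0.36, adjusted p = 0.000138 by edgeR). Hoxaas2 was over the filter's minimum in WT only and so passed the filter through WT alone. Hotairm1 had 26, 20 and 19 counts in WT against 23, 22 and 12, and its groups overlapped (adjusted p = 0.633). Gm53, a long noncoding RNA between Hoxb13 and Hoxb9, went the other way, with 114, 98 and 95 counts in WT and 283, 271 and 284 in Tnfaip2-/- EBs (log2 fold change 1.48 ± 0.09, adjusted p = 1.06e-18). The processed pseudogene Gm11539 beside it had 53.6 ± 2.01 CPM in WT and 56.9 ± 3.98 in Tnfaip2-/- EBs (adjusted p = 0.0786), and was called higher without Tnfaip2-/- replicate 3 (0.0104) and with library size alone as scaling (0.0186). Apart from Mir196a-1, described below, the other RNAs with 20 or more counts were not tested. 5730596B20Rik had 10, 7 and 7 counts in WT against 2, 3 and 2, and Gm27477 had 8, 7 and 16 against 4, 6 and 4, both with groups apart. Gm15050 (3, 13 and 8 against 5, 2 and 3), Gm27861 (8, 9 and 9 against 4, 9 and 7), Hoxaas3 (8, 6 and 5 against 2, 6 and 3) and Haglr (4, 5 and 4 against 1, 7 and 3) overlapped. Exons of other genes cover 43.1% of the exon bases of Hotairm1 and 30.7% of those of Hoxaas3.

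Of 16 cluster RNAs listed by symbol, 9 had 0 counts in all samples and 3 were tested. Of these 3, 1 was called lower and 1 higher, where 33.7% of all tested genes were called lower and 34.0% higher. The median log2 fold change was -0.15, against 0.00 over all tested genes. The gene called higher was the miRNA gene Mir196a-1, between Hoxb13 and Hoxb9, with 16, 11 and 11 counts in WT and 18, 25 and 20 in Tnfaip2-/- EBs. All 3 Tnfaip2-/- samples were above the WT samples (log2 fold change 0.76 ± 0.29, adjusted p = 0.0193), but the call was lost with DESeq2 (adjusted p = 0.165), without WT replicate 2 (0.0666), without WT replicate 3 (0.0835) and without Tnfaip2-/- replicate 2 (0.109). Counts over a hairpin in an mRNA library do not measure the mature miRNA. Its sequence, from RefSeq, is shown because miR-196a is known to target Hoxb8, with the seed (bases 2 to 8) in capitals.
mmu-miR-196a-5p: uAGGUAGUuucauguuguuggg

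Genes flanking the clusters moved in both directions. Beyond Hoxa13, the homeobox gene Evx1 had 109, 114 and 119 counts in WT and 5, 4 and 6 in Tnfaip2-/- EBs, and Hibadh, further out, did not differ beyond its spread (adjusted p = 0.739). On the other side of cluster A, Skap2 was at a log2 fold change of -0.21 ± 0.04 and Snx10 at 0.43 ± 0.03. Below cluster B, Ttll6 rose from 0.742 ± 0.140 to 6.08 ± 0.713 CPM and Calcoco2 from 1.11 ± 0.0923 to 9.54 ± 0.230 CPM (adjusted p = 4.3e-20 and 1.4e-24), against the direction of Hoxb1 and Hoxb2 at the far end. Skap1 and Snx11, beyond Hoxb1, were not called (adjusted p = 0.124 and 0.231), although without WT replicate 2 Skap1 was past the threshold (0.0371). Around clusters C and D, Atp5g2, Calcoco1, Atp5g3, Lnpk and Mtx2 were higher by 0.11, 0.30, 0.13, 0.34 and 0.09 on the log2 scale, Smug1 and Cbx5 were at -0.22 and -0.58, and Hnrnpa3 was not called (adjusted p = 0.395). The call of Mtx2 was lost with DESeq2 (adjusted p = 0.178), with the replicate block (0.0509), without an expression filter (0.116), without WT replicates 1 (0.115) or 2 (0.0965) and without Tnfaip2-/- replicates 2 (0.0619) or 3 (0.186). That of Smug1 was lost with DESeq2 (0.183), with library size alone as scaling (0.0656), without WT replicate 3 (0.109) and without Tnfaip2-/- replicates 1 (0.0859) or 2 (0.0604).

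HOX proteins bind DNA with cofactors of the TALE class. Of 9 cofactor genes tested, 7 were called lower, 0 higher and 2 not (median log2 fold change -0.36), where 33.7% of all tested genes were called lower and 34.0% higher, or 6 lower without WT replicate 1 or without Tnfaip2-/- replicate 3, where Meis3 was not called (adjusted p = 0.144 and 0.0788), a call also lost with DESeq2 (0.131). Meis2 had 440, 440 and 444 counts in WT and 114, 77 and 113 in Tnfaip2-/- EBs, and Meis1 had 98, 63 and 77 against 32, 24 and 31. Both were lower in every Tnfaip2-/- sample, with log2 fold changes of -2.08 ± 0.09 and -1.41 ± 0.18 (adjusted p = 7.09e-25 and 4.18e-09). The partners Pbx2, the most abundant of the list per kb, and Pbx3 moved less, with log2 fold changes of -0.36 ± 0.04 and -0.45 ± 0.05.

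Regulators of the caudal embryo were measured too, and their part in the Hox differences was not tested. Of 14 caudal regulators, 12 were tested and all 12 were called lower (median log2 fold change -2.63), where 33.7% of all tested genes were. Of the 12, 6 were over the filter's minimum in WT only and so passed the filter through WT alone, and the median of the other 6 was -1.55. The call of Tbx6 was lost with DESeq2 (adjusted p = 0.206), without WT replicates 1 (0.194) or 3 (0.107) and without Tnfaip2-/- replicates 1 (0.0874) or 2 (0.106). Cdx2, a direct activator of Hox genes, had 42, 37 and 28 counts in WT and 1, 2 and 0 in Tnfaip2-/- EBs, a ratio of 34.1 (exact 95% counting interval 11.4 to 168), and Cdx1 had 35, 43 and 44 against 0, 2 and 3. The T-box factor T had 774, 732 and 866 counts in WT and 5, 3 and 1 in Tnfaip2-/- EBs. All of these were near 0 in each Tnfaip2-/- sample. Nkx1-2 and Fgf8 went from 8.83 ± 0.433 to 0.134 ± 0.0430 CPM and from 14.5 ± 0.750 to 0.553 ± 0.0603 CPM, and Fgf4, the most abundant per kb, from 105 ± 1.78 to 67.2 ± 1.07.

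Of 16 genes of the retinoid pathway, which acts on the 3′ Hox genes, all were tested, 8 were called lower, 2 higher and 6 not (median log2 fold change -0.23), against 33.7% lower and 34.0% higher among all tested genes. Of the 16, 2 were over the filter's minimum in every WT sample but not in every Tnfaip2-/- sample. The receptor gene Rxrg (log2 fold change -2.59 ± 0.10), the binding proteins Crabp2 (-2.10 ± 0.07) and Crabp1 (-1.77 ± 0.06) and the degrading enzyme Cyp26b1 (-1.56 ± 0.37) were among those called lower. The 2 called higher, named after their values were seen, were the enzyme of retinoic acid synthesis Aldh1a2 (1.31 ± 0.21, adjusted p = 5.5e-07) and the receptor gene Rxra (0.61 ± 0.06, adjusted p = 6.22e-13). Of 7 hindbrain regulators 5 were tested, with 1 lower, 2 higher and 2 not called (median 0.19). Gbx2, of the anterior hindbrain, was lower (12.4 ± 0.488 CPM in WT and 4.38 ± 0.574 in Tnfaip2-/- EBs, with 43.5% of its exon bases shared with other genes), while Fgf3 (log2 fold change 0.52 ± 0.17, adjusted p = 0.00728, and 0.101 with DESeq2) and Irx3 (0.34 ± 0.08) were higher.

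**Figure D4:**
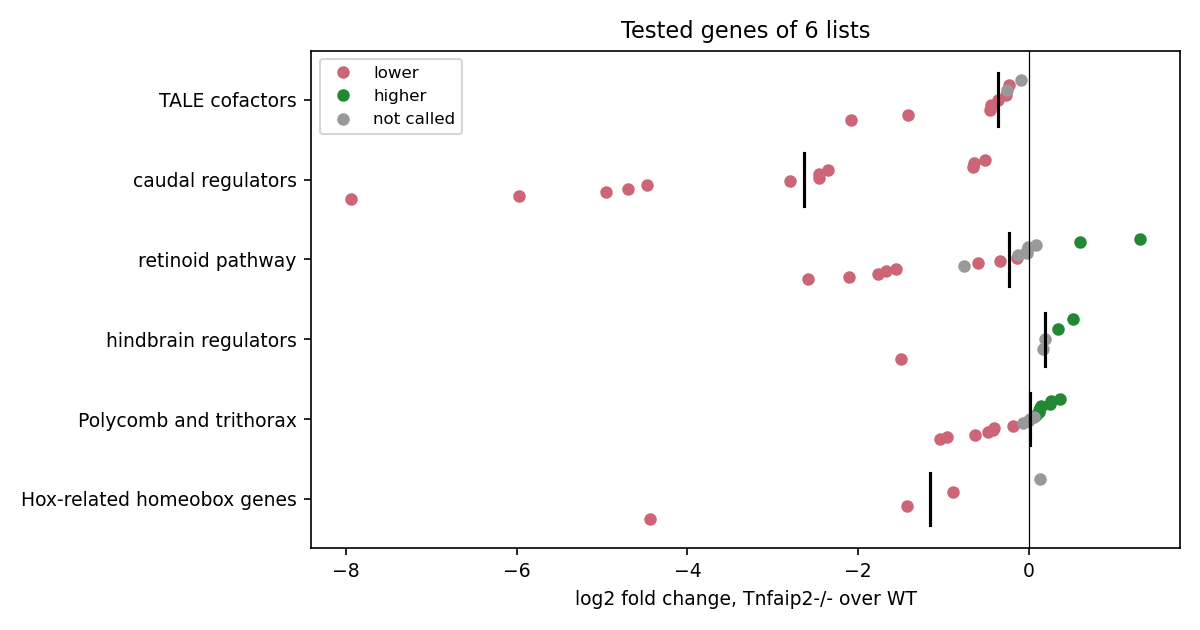
Log2 fold change of Tnfaip2-/- over WT EBs for each tested gene of 6 lists, with points by call at an adjusted p of 0.05 and a black line at the median of each list. The caudal regulators all lie below 0, 6 of the 12 having passed the filter through WT alone, and the Polycomb and trithorax genes lie on both sides of 0 with a median of 0.01.

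Of 20 Polycomb and trithorax genes, which keep Hox clusters silent or active, 19 were tested, 7 called lower, 8 higher and 4 not (median log2 fold change 0.01), against 33.7% lower and 34.0% higher among all tested genes, with 5 higher without Tnfaip2-/- replicate 3 and 9 without WT replicate 2. The 5 largest called changes were decreases, of Phc1 (-1.04 ± 0.02), Cbx8 (-0.95 ± 0.34), Ring1 (-0.63 ± 0.07), Pcgf2 (-0.47 ± 0.04) and Cbx2 (-0.42 ± 0.05). Cbx8 was over the filter's minimum in every WT sample and in 1 Tnfaip2-/- sample. Its call was lost with DESeq2 (adjusted p = 0.127) and without WT replicate 3 (0.0745) or Tnfaip2-/- replicate 3 (0.0689). Of 11 homeobox genes related to Hox genes, 4 were tested, 3 called lower and 1 not (median -1.16). Of the 4, 2 were over the filter's minimum in every WT sample but not in every Tnfaip2-/- sample. The 3 called lower were Evx1 (-4.44 ± 0.23), En2 (-1.43 ± 0.16) and En1 (-0.88 ± 0.13).

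Markers of other cell types moved between the genotypes as well, where 33.7% of all tested genes were called lower and 34.0% higher, and their part in the Hox differences was not tested. Of 7 pluripotency genes, 3 were lower, 3 higher and 1 not called, among them Utf1, Zfp42 (log2 fold change 0.90 ± 0.03) and Esrrb (-0.48 ± 0.03), with Pou5f1 the most abundant, and the list summed to 2183, 2170 and 2171 CPM in WT and 2049, 2057 and 2065 in Tnfaip2-/- EBs. The call of Utf1 as lower was lost with DESeq2 (adjusted p = 0.0885), with the replicate block (0.0894), with library size alone as scaling (0.256), at a minimum count of 50 (0.0633), without WT replicates 1 (0.192) or 2 (0.108) and without Tnfaip2-/- replicate 1 (0.316). Of 10 fibroblast genes, 6 were tested and 3 called lower. All 3 were over the filter's minimum in every WT sample but not in every Tnfaip2-/- sample. The list summed to 15.1, 16.3 and 14.3 CPM against 12.4, 11.4 and 12.2. Thy1 was its most abundant gene (adjusted p = 0.232), Col1a2 was lower (1.70 ± 0.114 CPM in WT and 0.601 ± 0.188 in Tnfaip2-/- EBs), Col3a1 and Prrx1 had 45 and 57 counts in WT against 2 and 3 (ratios of 21.5, exact 95% counting interval 5.62 to 183, and 18.2, interval 5.91 to 90.7), and Fbn1 and Col1a1 were not called (adjusted p = 0.388 and 0.889). Postn and Lum, at 0 in every Tnfaip2-/- sample, had at most 4 counts in a WT sample. Of 7 anterior neural genes, 6 were tested, 4 lower (Sox1 at -1.61 ± 0.05, Pax6 at -0.82 ± 0.08, Lhx5 at -0.73 ± 0.19 and Lhx2 at -0.44 ± 0.18), 1 higher (Hesx1 at 2.65 ± 0.15) and 1 not (Otx2, the most abundant, adjusted p = 0.786), and they summed to 315, 309 and 309 CPM against 265, 265 and 263. The call of Lhx2 was lost with DESeq2 (adjusted p = 0.182) and without any 1 of 4 libraries, WT replicates 2 and 3 (0.0636 and 0.0610) and Tnfaip2-/- replicates 1 and 3 (0.0909 and 0.202).

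All 6 visceral endoderm genes were called lower, as were 33.7% of all tested genes. Of the 6, 2 were over the filter's minimum in every WT sample but not in every Tnfaip2-/- sample. The 6 genes summed to 80.4, 81.4 and 75.5 CPM in WT and 60.9, 58.9 and 58.2 in Tnfaip2-/- EBs. Afp had 62 counts against 3 (ratio 19.8, exact 95% counting interval 6.45 to 98.4), Apoa1, Apob and Ttr had log2 fold changes of -2.59 ± 0.22, -2.10 ± 0.14 and -1.95 ± 0.16, and Amn, the most abundant per kb, -0.51 ± 0.09. The call of Cubn was lost with DESeq2 (adjusted p = 0.143), with the replicate block (0.0672), with library size alone as scaling (0.170), at a minimum count of 50 (0.0521), without WT replicates 1 (0.0941) or 2 (0.125) and without Tnfaip2-/- replicates 2 (0.120) or 3 (0.0939). Of 6 genes of extraembryonic and lateral mesoderm, 4 were tested, each over the filter's minimum only in the genotype where it was higher, with Kdr (-2.82 ± 0.32) and Tal1 (-1.49 ± 0.41) lower and Hand1 (1.75 ± 0.32), the most abundant, and Tbx4 (1.18 ± 0.35) higher, the last lost with DESeq2 (adjusted p = 0.0655). They summed to 3.62, 3.66 and 2.94 CPM against 2.68, 2.28 and 3.47.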

How the data were processed

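The deposited table holds raw counts per gene, which the authors made from reads of an unstranded mRNA library kit with TopHat2 2.1.0 and featureCounts 1.5.0 on GRCm38 with Ensembl 90 (tool versions per the labels); whether counting used strand was not given in the sources used here. Symbols and exon lengths came from GENCODE M21 on the same build and matched 52403 of 52636 IDs. Counts were fitted over the whole table with edgeR 4.0.16 (TMM scaling, default expression filter, robust quasi-likelihood F test, genotype only) in R 4.3.3, with Benjamini-Hochberg adjustment over 17849 tested genes and a threshold of 0.05; the fit was tested on simulated data. The filter asked for 0.445 CPM (before TMM adjustment) in 3 samples. The SE is the absolute log2 fold change over the square root of F. CPM used TMM-scaled totals. Counting intervals are exact binomial and, like the floor of 3 counts, cover counting error only. A Hox gene was named if it passed the filter or had 20 counts over the samples; of each list, the 5 called genes with the largest change and the most abundant per kb; of each cluster, the inner genes with 20 counts and the 2 nearest tested protein-coding genes on each side. Some genes that these rules select are not reported here. Members and lists were chosen with earlier results of these data known. Replicates of a genotype differed by 1.32 to 1.88 times the variance of sampling alone, and p-values measure only the spread between these samples. Alternatives were DESeq2 1.42.0 (also with shrunken fold changes), other scalings and filters, a legacy fit, a fold test, the replicate block and leaving out each sample.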

Additional observations from a re-analysis of the deposited data

How the results depend on the processing

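The 6 calls of lower Hox genes were shared by every alternative run except a minimum count of 50, under which Hoxa4 and Hoxb2 were not tested and 4 remained, and 0 were called higher in each; without an expression filter 9 were called lower, with DESeq2 8, and with 1 sample left out 6 to 8, with Hoxb8 among the added. Genes called different numbered 12084, and 2798 when tested against a fold change of 1.5. With the replicate block 11841 genes and 6 Hox genes were called; same-numbered samples did not deviate together (correlations of -0.0218, -0.0252 and -0.0324). The median log2 fold change of tested Hox genes (-1.79) changed with which genes were tested, to -0.93 with DESeq2, -1.05 without a filter and -2.26 at a minimum count of 50, and ranged from -2.36 (without Tnfaip2-/- replicate 3) to -1.28 (without WT replicate 1) when 1 sample was left out. With DESeq2, members called lower were 3 of the hindbrain regulators, 6 of the related homeobox genes and 2 of the cluster RNAs, and members called higher were 1 hindbrain regulator, 0 cluster RNAs and 1 mesoderm gene; the cause was not tested. Leaving out 1 sample, Polycomb and trithorax genes called higher ranged from 5 (without Tnfaip2-/- replicate 3) to 9 (without WT replicate 2), and cluster RNAs called higher ranged from 0 (without WT replicates 2 or 3, or Tnfaip2-/- replicate 2) to 1. Over the other genes that the naming rules select and all alternatives, calls were the same in 1054 cases, lost in 60, gained in 3 and reversed in 0, a tally without Meis3, Tbx6, Utf1 and Cubn, which were named after their values were seen and also lost calls. A filter on the mean over all samples, chosen after seeing the data, called 6 Hox genes. At this depth 31 of 39 Hox genes did not pass the filter, and a difference in them that was not called cannot be read as absent.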
